A study of Mus musculus with 4 samples.

Results

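The Msx, Dlx and Prrx genes are families of homeobox genes, which encode transcription factors that bind DNA through a homeodomain. They were followed here in mouse forelimb buds with and without conditional loss of Smarcc1, a gene for a core subunit (BAF155) of the BAF chromatin remodelling complex. The family members were taken by name, as the rows whose Ensembl identifiers map to Msx1, Msx2, Dlx1 to Dlx6, Prrx1 and Prrx2 in the GENCODE annotation of mm10, and all 10 were found among the 35727 identifiers of the deposited table. Knockout embryos carried 1 copy of PrxCre, a Cre transgene driven by a limb enhancer of Prrx1 and active in limb bud mesenchyme, on a homozygous conditional Smarcc1 background (PrxCre/+;Smarcc1c/c). Control embryos were homozygous for the same conditional allele and had no Cre (Prx+/+;Smarcc1c/c). Each of the 4 libraries came from the right and left forelimb buds of an individual E11.5 embryo, and each genotype had an embryo with 40 somites (replicate 1) and an embryo with 39 somites (replicate 2). Levels are in TPM, an abundance scaled for transcript length and for the library total, so that genes can be compared within a library. TPM keep no record of read depth, and precision rests on n = 2 embryos per genotype. The genes were chosen with the knockout and control values in view, so their differences between genotypes are given as a description, without a test.

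Msx genes are targets of BMP signalling in the limb bud and act in its distal mesenchyme and in the apical ectodermal ridge, a strip of signalling epithelium along the limb margin. Dlx genes lie in the genome as pairs with neighbouring members, and in the limb bud they are known above all as genes of the ridge and ectoderm, where loss of Dlx5 and Dlx6 together gives split hand and foot defects in mice. Prrx1 and Prrx2 are paired-related homeobox genes of limb and craniofacial mesenchyme. BAF complexes move nucleosomes at promoters and enhancers.

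Smarcc1 itself was at 46.2 and 38.4 TPM in knockout buds, against 112 and 119.6 TPM in control buds, a fall to 0.365 of the control mean (log2 fold change -1.44 ± 0.13, SE, n = 2 per genotype; limma with Benjamini-Hochberg, adjusted p = 0.0117). Cells outside the PrxCre domain remain in these buds. Between 12555 and 12689 genes reached 1 TPM in each library. All 12 limb mesenchyme markers examined were measured at 1 TPM or more in at least 2 libraries, and their summed level was 859 and 977 TPM in knockout buds and 857 and 1035 TPM in control buds. Of these 12, Pdgfra, a growth factor receptor of mesenchyme, rose (162 and 173 TPM in knockout buds, 79.5 and 84.0 TPM in control buds; limma with Benjamini-Hochberg, adjusted p = 0.0165; with control replicate 1 or 2 left out it was 0.0597 and 0.0524), and the LIM homeobox gene Lhx9 fell, as given below. With somite stage as a block in the fit 2 of the 12 rose and 2 fell, Lmx1b and Hoxd11 joining them.

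The members share their DNA-binding part, and how alike they are bears on whether reads can be told apart. Below are the 30 coding bases of homeodomain positions 42 to 51, at the start of the third helix, which contacts the major groove of DNA. They were read from GENCODE M21 transcripts on the coding strand, and capitals mark bases that differ from Msx1.
Msx1: gagacccaggtgaagatctggttccagaac
Msx2: gagacccaggtCaaAatctggttccagaac
Dlx1: CagacGcaggtCaagatAtggttccagaac
Dlx2: CaAacTcaggtCaaAatctggttccagaac
Dlx3: CaAacAcaggtgaaAatctggttccagaac
Dlx4: CaAacccaggtAaagatctggttTcagaac
Dlx5: CaAacAcaggtgaaAatctggttTcagaac
Dlx6: CaAacAcaggtgaagatAtggttTcagaaT
Prrx1: gagGccAGAgtgCagGtGtggttTcagaac
Prrx2: gagGcAcGTgtCCaAGtctggttccagaac
Msx2 differs from Msx1 at 2 of these 30 bases, Dlx genes at 4 to 6 and both Prrx genes at 8. Over the whole homeobox of 180 bases, Msx1 and Msx2 are identical at 148 positions (82.2%), Dlx2 and Dlx3 at 147 (81.7%) and Prrx1 and Prrx2 at 142 (78.9%). Despite this likeness, the GENCODE transcripts of Msx1 and Msx2 have 0 stretches of 31 bases in common, as do those of Prrx1 and Prrx2 and those of Dlx5 and Dlx6. The largest number shared by any pair of members is 5. Overlap with genes outside the family, coding or noncoding, is larger for Dlx6 and Dlx1. Of the 2275 stretches of Dlx6, 219 (9.63%) also occur in transcripts of other genes. These are spread over 3352 genes, of which the antisense-strand gene Dlx6os2 shares the most (48). Of the 5496 stretches of Dlx1, 308 occur in the antisense transcript Dlx1as. The strand setting of the quantification is not given in the sources used here, so reads of Dlx1, Dlx4 and Dlx6 and of their antisense partners cannot be told apart where these overlap. The antisense transcripts were not analysed here.

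Promoter entries from RefSeq (GRCm38.p6) matched 6 members, namely Msx1, Msx2, Dlx1, Dlx2, Prrx1 and Prrx2. The 250 bases before the start are printed for Msx1 (chr5:37824586-37824835) and Msx2 (chr13:53472781-53473030), the pair with the largest differences between genotypes, and for Prrx1 (chr1:163313651-163313900), the most abundant member, all 3 on the minus strand and read 5′ to 3′. The start is that of RefSeq, which can differ from the GENCODE start used elsewhere here. By the GENCODE positions, the Msx2 stretch lies inside the gene, as do those of Dlx1 and Prrx2. The Prrx1 stretch lies partly inside its gene, and the Msx1 stretch lies outside. Capitals mark the homeodomain core TAATTA, the CCAAT box and the GC box GGGCGG on either strand.
Msx1: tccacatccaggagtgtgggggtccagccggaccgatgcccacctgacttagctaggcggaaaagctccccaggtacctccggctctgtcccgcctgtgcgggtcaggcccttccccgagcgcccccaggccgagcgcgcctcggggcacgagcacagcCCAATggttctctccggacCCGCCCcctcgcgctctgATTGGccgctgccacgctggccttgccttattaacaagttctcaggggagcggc
Msx2: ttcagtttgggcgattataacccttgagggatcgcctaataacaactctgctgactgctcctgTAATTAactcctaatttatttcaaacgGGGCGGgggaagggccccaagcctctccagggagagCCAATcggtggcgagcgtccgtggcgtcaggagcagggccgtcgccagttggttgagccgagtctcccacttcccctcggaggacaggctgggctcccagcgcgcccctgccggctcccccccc
Prrx1: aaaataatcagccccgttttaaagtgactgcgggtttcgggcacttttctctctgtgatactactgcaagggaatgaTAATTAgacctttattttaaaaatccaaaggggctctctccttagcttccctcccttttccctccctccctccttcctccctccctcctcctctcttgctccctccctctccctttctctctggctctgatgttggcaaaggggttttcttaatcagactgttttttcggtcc
The Msx1 and Msx2 stretches both hold a CCAAT box and a GC box, and those of Msx2 and Prrx1 hold TAATTA, which reads the same on both strands. None of the marked motifs overlap. Among the 6 promoters CCAAT occurred in 3, GGGCGG in 4 and TAATTA in 2, against 33.8%, 32.7% and 4.84% of all 32851 promoter stretches of this length. The TATA box TATAAA, the TCF/LEF motif CTTTGA and the GLI motif GACCACCCA occurred in 0 of the 6 (12.4%, 13.8% and 0.225% of all promoters), and the GC-rich SMAD motif GGCGCC in 1, that of Dlx2 (9.59%). The GC content was 68% for Msx1, 61.6% for Msx2 and 47.6% for Prrx1, with a median of 52.4% over all promoters. A match is a string of letters and not a measured binding site.

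All 10 members reached 1 TPM in at least 2 libraries, and their levels spanned a wide range. In the knockouts the order by mean TPM was Prrx1 (135 ± 7.05), Prrx2 (129 ± 11.2), Msx1 (27.4 ± 0.552), Dlx1 (12.5 ± 4.93), Dlx2 (10.9 ± 3.29), Msx2 (10.9 ± 3.40), Dlx6 (8.76 ± 2.15), Dlx5 (7.89 ± 2.73), Dlx3 (6.89 ± 2.52) and Dlx4 (0.768 ± 0.135), each with the SD and n = 2. In the controls it was Prrx1 (195 ± 9.08), Prrx2 (174 ± 46.5), Msx1 (95.2 ± 19.4), Msx2 (35.1 ± 1.83), Dlx1 (21.0 ± 3.33), Dlx2 (20.4 ± 2.18), Dlx5 (13.3 ± 0.813), Dlx3 (13.2 ± 1.81), Dlx6 (7.29 ± 2.40) and Dlx4 (1.46 ± 0.167). Neighbours in the control order whose libraries overlapped were Prrx1 and Prrx2, Dlx1 and Dlx2, and Dlx5 and Dlx3. In the knockouts the libraries of Dlx1, Dlx2, Msx2, Dlx6, Dlx5 and Dlx3 overlapped from each to the next, whereas in control buds Msx2 stood apart above all Dlx genes and Dlx6 apart below Dlx3. Dlx4 was under 1 TPM in both knockout libraries and entered the fit only through the controls.

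**Figure D1:**
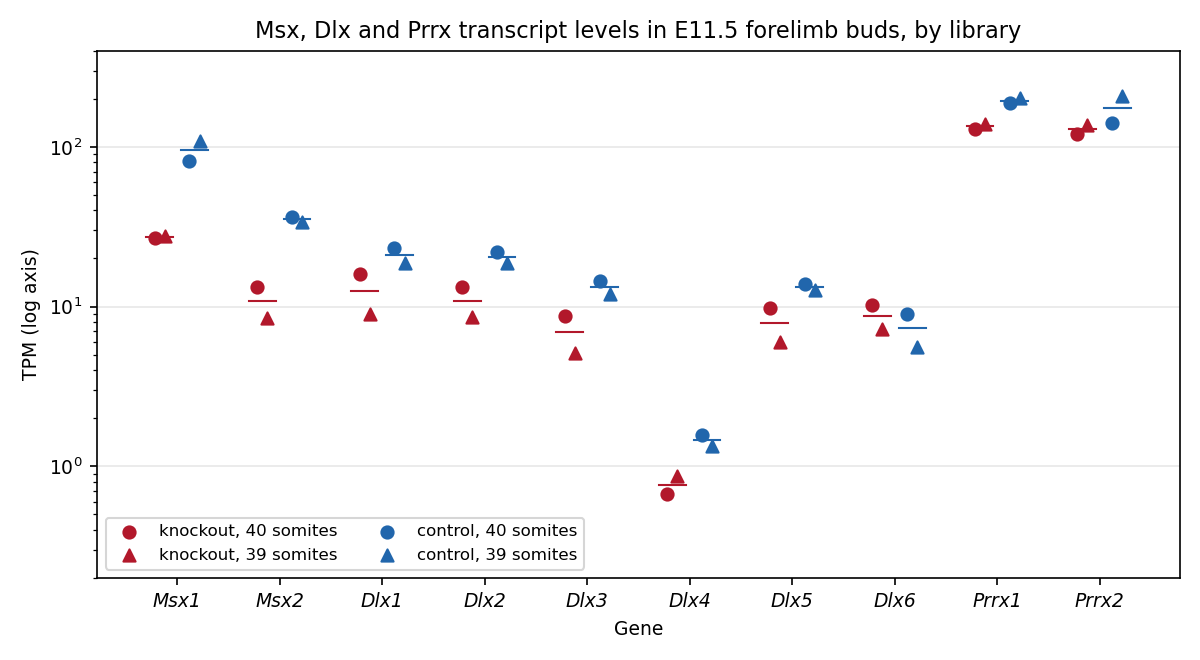
TPM on a log axis for each gene in each library, with circles for embryos of 40 somites, triangles for 39 somites and bars for the mean of each genotype (n = 2). For 9 of the 10 genes both knockout points lie below both control points, the exception being Dlx6.

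Both knockout libraries lay below both controls for 9 of the 10 members, where 21.2% of the 12809 tested genes showed this. In the fit over all genes (limma with Benjamini-Hochberg, adjusted p under 0.05) 2 members were called lower and 0 higher, where 0.492% and 0.812% of all tested genes were. With somite stage, which pairs the libraries, as a block in the fit, 5 members were called, all lower (Dlx2, Dlx3, Msx1, Msx2 and Prrx1). That fit called more genes in general, 267 of all 12809 tested genes lower and 266 higher. No member lay above both controls in both knockouts, as 22.7% of all tested genes did. The median log2 fold change on the log2(TPM + 1) scale was -0.74 over the 10 members and 0.00838 over all tested genes. These counts and medians describe genes that were picked from the same comparison and support nothing further. For these 9 members the same sign in the pair of embryos with 40 somites and in the pair with 39 follows from the lack of overlap. Dlx6, whose sign was free to differ between the pairs, was higher in the knockout in both. In whole buds, fewer cells of a type cannot be told apart from less RNA per cell.

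**Figure D2:**
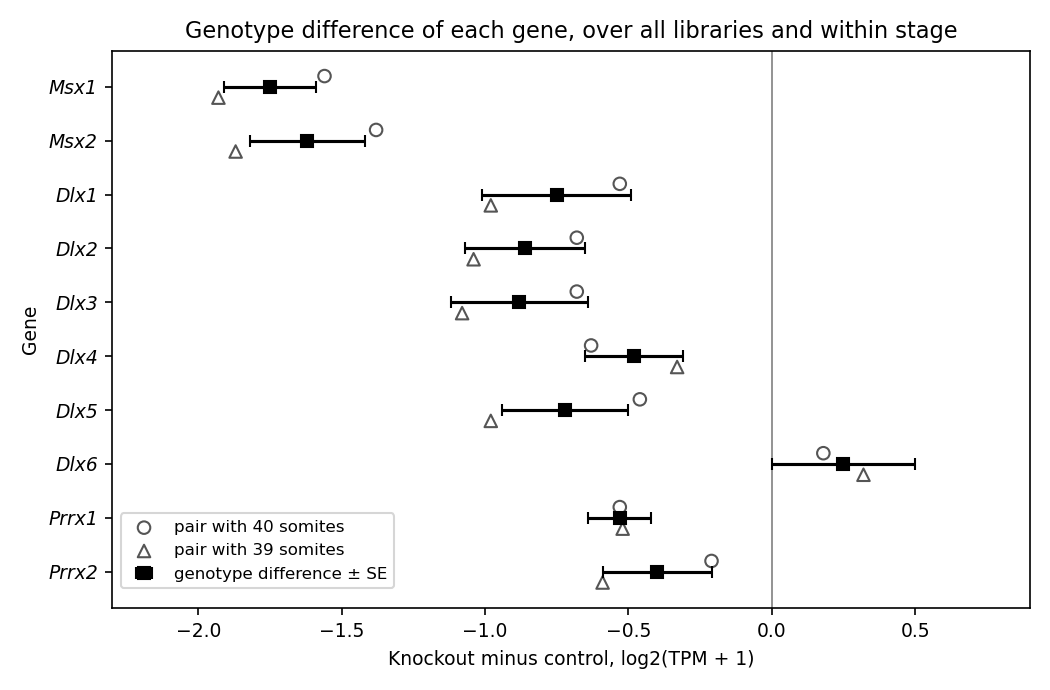
Knockout minus control on the log2(TPM + 1) scale for each gene, as the estimate over all 4 libraries with its SE (squares) and as the difference within each somite stage (open symbols). The Msx genes lie farthest below 0 at -1.75 and -1.62, and Dlx6 is the only gene above 0, at 0.25.

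The Msx genes, whose proteins act mainly as transcriptional repressors in mesenchyme next to signalling epithelia, showed the largest differences of the group. Msx1 (ENSMUSG00000048450, chromosome 5, 37820485 to 37824583) stood at 27.0 and 27.8 TPM in knockout buds and at 81.5 and 109 TPM in control buds. The knockout mean was 0.288 of the control mean, and the log2 fold change of -1.75 ± 0.16 (SE) ranked 25 from the lowest among the 12809 tested genes. Both knockout libraries were at nearly the same level and far below the lower control. Msx2 (ENSMUSG00000021469, chromosome 13, 53466884 to 53473074) stood at 13.3 and 8.53 TPM in knockout buds and at 36.4 and 33.8 TPM in control buds, a ratio of means of 0.312 and a log2 fold change of -1.62 ± 0.20. The fit over all genes called Msx2 with all 4 libraries, and not under median-ratio or quantile scaling or with no filter on low values. Msx2 was chosen with these values in view, so the call describes it and is no test. Its log2 fold change was -1.57 without control replicate 1 and -1.68 without control replicate 2.

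The balance between the Msx genes was alike in both genotypes at each stage. Msx1 exceeded Msx2 2.02-fold and 3.26-fold in knockout buds at 40 and 39 somites, and 2.24-fold and 3.23-fold in control buds. It was higher at 39 somites in each genotype. The summed Msx level was 40.3 and 36.3 TPM in knockout buds, against 118 and 143 TPM in control buds.

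The Dlx genes followed a second pattern, with smaller differences and an exception. Dlx1 (ENSMUSG00000041911, chromosome 2, 71528113 to 71533981) stood at 15.9 and 8.97 TPM in knockout buds and 23.4 and 18.7 TPM in control buds (log2 fold change -0.75 ± 0.26, SE, n = 2 per genotype). Its partner Dlx2 (ENSMUSG00000023391, chromosome 2, 71543408 to 71546754), which points towards it across a gap of 9426 bases, stood at 13.3 and 8.62 TPM in knockout buds and 21.9 and 18.8 TPM in control buds (-0.86 ± 0.21). The Dlx1 to Dlx2 ratio stayed between 0.992 and 1.20 in all libraries.

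Dlx3 (ENSMUSG00000001510, chromosome 11, 95120119 to 95125296), known for its roles in epidermis, hair and placenta, stood at 8.67 and 5.11 TPM in knockout buds and 14.5 and 11.9 TPM in control buds (log2 fold change -0.88 ± 0.24). Its partner Dlx4 (ENSMUSG00000020871, chromosome 11, 95140447 to 95146263), 15150 bases away, was the rarest member, at 0.672 and 0.863 TPM in knockout buds and 1.58 and 1.34 TPM in control buds. At these low values the scale compresses the difference of Dlx4, which was -0.48 ± 0.17 with a pseudocount of 1, -0.85 with 0.1 and -0.16 with 5.

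Dlx5 and Dlx6, the pair known for its need in the ridge, differed in sign. Dlx5 (ENSMUSG00000029755, chromosome 6, 6877805 to 6882085) stood at 9.82 and 5.96 TPM in knockout buds and 13.9 and 12.7 TPM in control buds (log2 fold change -0.72 ± 0.22, 95% interval -1.26 to -0.18). Dlx6 (ENSMUSG00000029754, chromosome 6, 6863334 to 6868568), 9236 bases from it, stood at 10.3 and 7.24 TPM in knockout buds and 8.99 and 5.59 TPM in control buds (0.25 ± 0.25, 95% interval -0.36 to 0.86). The genotypes overlapped for Dlx6 and did not for Dlx5. The Dlx5 to Dlx6 ratio was 0.955 and 0.823 in knockout buds and 1.54 and 2.27 in control buds, so Dlx6 was the higher of the pair in both knockout libraries and Dlx5 in both control libraries. As a share of the summed Dlx level, Dlx6 made up 17.5% and 19.7% in knockout buds and 10.7% and 8.09% in control buds. The log2 fold change of Dlx6 was 0.55 without control replicate 1 and -0.05 without control replicate 2, and 0.02 without knockout replicate 1. Within stage it was 0.18 at 40 somites and 0.32 at 39. The part of the overlapping antisense genes in the Dlx6 values was not tested.

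**Figure D3:**
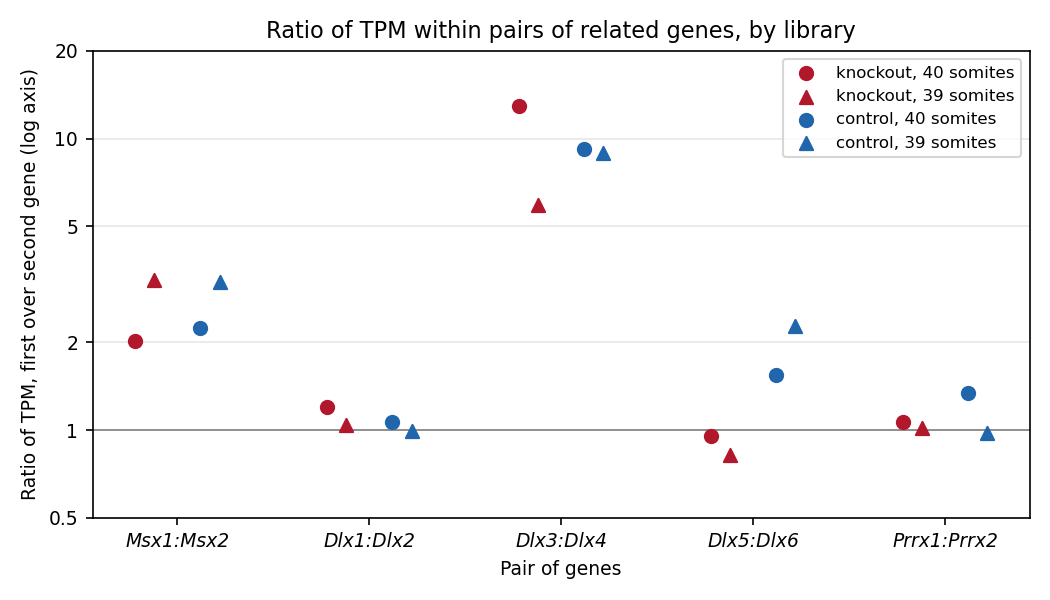
Ratio of the TPM of the first to the second gene of 5 related pairs, on a log axis, by library. Among these pairs, for Dlx5:Dlx6 alone are the knockout points (0.955 and 0.823) separate from the control points (1.54 and 2.27).

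The size of the differences of Dlx1, Dlx2, Dlx3 and Dlx5 depended on the knockout library. The knockout embryo with 39 somites had the lowest level of Dlx1, Dlx2, Dlx3 and Dlx5 in the series. Without it (knockout replicate 2) their log2 fold changes were -0.37, -0.58, -0.55 and -0.40, and without the other knockout embryo (replicate 1) they were -1.14, -1.15, -1.21 and -1.04. Leaving out a library unbalances stage and sex between genotypes, and the control with 39 somites was also the lower control for these genes. Matched within stage, the gap between the embryos was smaller. Knockout minus control was then -0.53, -0.68, -0.68 and -0.46 at 40 somites and -0.98, -1.04, -1.08 and -0.98 at 39 somites for the same genes.

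Markers of surface ectoderm, the tissue that holds the ridge, were lower beside the Dlx genes, none of them past the threshold without stage in the model. All 13 ectoderm markers had a negative log2 fold change, with a median of -0.41, although 0 of 13 passed (limma with Benjamini-Hochberg adjustment). An unadjusted p under 0.05 in limma was reached by 0 higher and 4 lower markers. Of all 12809 tested genes, 1752 reached it in this comparison of genotypes. The summed level of the markers was 502 and 317 TPM in knockout buds and 640.2 and 419.9 TPM in control buds. It was lower in each genotype at 39 somites, and none of the 13 was at 0 in all libraries. The summed Dlx1 to Dlx5 level was 48.4 and 29.5 TPM in knockout buds and 75.3 and 63.5 TPM in control buds. Set against the summed ectoderm markers, Dlx1 to Dlx5 came to 9.64% and 9.31% in knockout buds and 11.8% and 15.1% in control buds. By the same measure Dlx6 came to 2.05% and 2.28% in knockout buds and 1.40% and 1.33% in control buds. With somite stage as a block 3 of the 13 markers were called lower, Cldn6, Grhl3 and Perp. The part of ectoderm content in the Dlx differences was not tested.

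**Figure D4:**
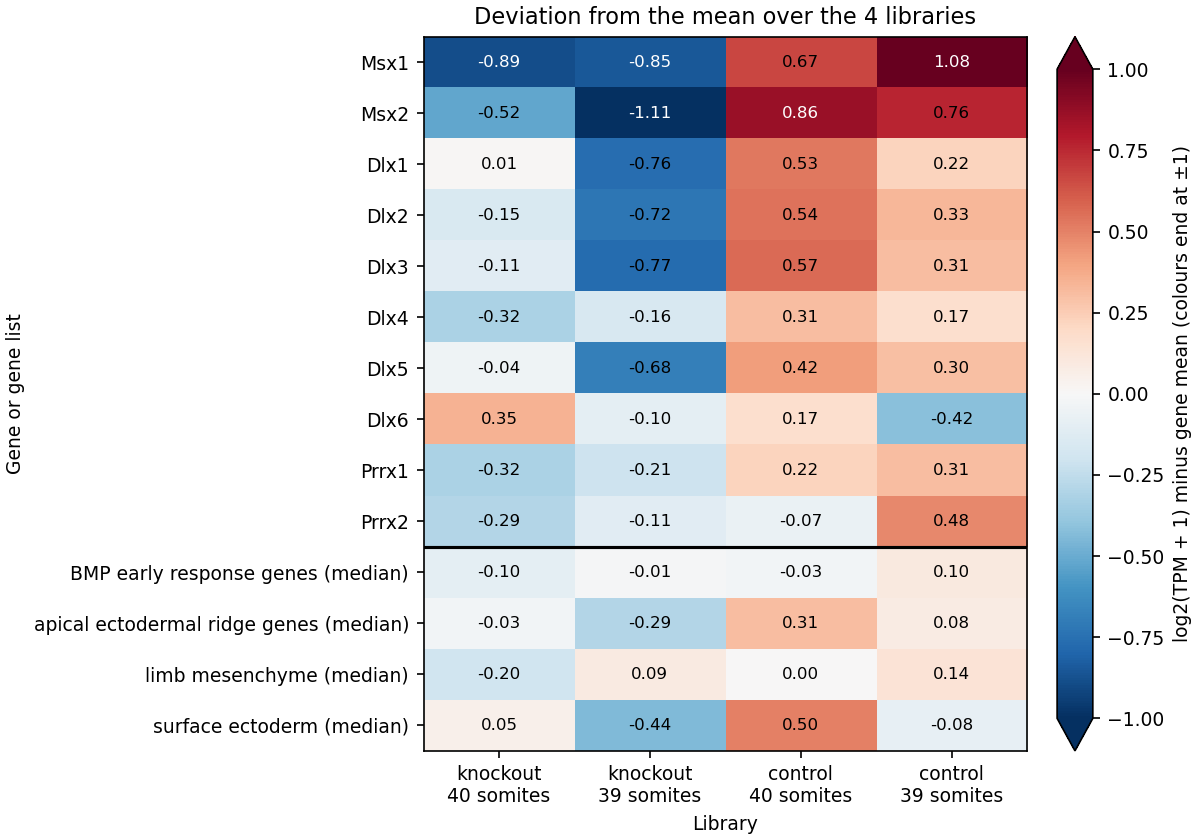
Deviation of log2(TPM + 1) from the mean over the 4 libraries, for each gene and for the median of 4 gene lists (members left out). Dlx1, Dlx2, Dlx3 and Dlx5 are lowest in the knockout with 39 somites, as is the surface ectoderm median at -0.44, whereas the limb mesenchyme median stays between -0.20 and 0.14.

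The Prrx genes, which mark limb mesenchyme and of which Prrx1 lends its enhancer to the Cre driver, were the most abundant members and, of the 9 that were lower, had the ratios of means nearest to 1 (0.693 for Prrx1 and 0.744 for Prrx2). Prrx1 (ENSMUSG00000026586, chromosome 1, 163245119 to 163313710) stood at 129.9 and 139.8 TPM in knockout buds and 188 and 201 TPM in control buds. Prrx1 had a log2 fold change of -0.53 ± 0.11 (SE), with within-stage differences of -0.53 and -0.52 that were closer to each other than those of any other member. Prrx2 (ENSMUSG00000039476, chromosome 2, 30834972 to 30881251) stood at 121 and 137 TPM in knockout buds and 141 and 207 TPM in control buds. The control embryo with 39 somites lay well above the other 3 libraries. Its label also lists the most total RNA, 580 ng, against 310, 330 and 340 ng for the others. The part of this in the values was not tested. The log2 fold change of Prrx2 was -0.40 ± 0.19, with a 95% interval from -0.87 to 0.07, and it was -0.13 without control replicate 2 and -0.68 without control replicate 1. The list of mesenchyme markers had a median log2 fold change of -0.18 with 8 of 12 below 0.

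Somite stage gave a comparison across the same libraries that had no part in the choice of genes. With genotype in the model, 0 of the 10 members passed between embryos with 40 and 39 somites (limma with Benjamini-Hochberg, adjusted p from 0.160 for Dlx6 to 0.980 for Dlx4), and 21 genes passed in all, 0.164% of those tested. At an unadjusted p under 0.05 there were 5 members, where 21.6% of all tested genes reached it. Dlx6, Dlx1, Dlx3 and Dlx2 were higher at 40 somites by 0.53 ± 0.10, 0.54 ± 0.13, 0.46 ± 0.13 and 0.39 ± 0.12 on the log2 scale, and Prrx2 was lower (-0.36 ± 0.11, SE, n = 2 per stage). In all, 6 members were higher and 3 lower at 40 somites in both genotypes, Dlx4 being the one whose order differed. The ectoderm markers were higher at 40 somites beside the Dlx genes, 13 of 13 with a median of 0.57. Stage coincided with sex, since 4 Y-linked genes stood at 0.504 TPM or less in both embryos with 40 somites and at 13.5 TPM or more in both with 39, so stage and sex cannot be told apart.

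BMP signalling is the classical input to the Msx genes, and its genes were examined by role. Among 11 ligands and receptors, 1 rose and 0 fell (limma with Benjamini-Hochberg, adjusted p under 0.05), with a median log2 fold change of -0.05. The gene that rose was Bmp5, at 20.8 and 18.1 TPM in knockout buds and 6.03 and 6.22 TPM in control buds (log2 fold change 1.52 ± 0.13, SE, n = 2 per genotype; limma with Benjamini-Hochberg, adjusted p = 0.0117). The ligand gene Bmp7, at 20.9 and 19.8 TPM in knockout buds and 26.2 and 27.1 TPM in control buds, and Bmp2, at 7.26 and 6.26 against 4.75 and 4.35 TPM, did not pass (limma with Benjamini-Hochberg, adjusted p = 0.225 and 0.232). Of 9 measured SMAD transducers and antagonists 0 passed in limma, an unadjusted p under 0.05 was reached by 3 higher and 0 lower genes, and the median was 0.11. The antagonist genes Bmper, Chrdl1 and Grem1 had the smallest p-values, with log2 fold changes of 0.73 ± 0.19, 0.55 ± 0.15 and 0.41 ± 0.16.

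Of 8 early response genes of BMP signalling, 0 rose and 1 fell, with a median of -0.11. Bambi, which encodes a decoy receptor induced by BMP, fell to 9.69 and 7.57 TPM in knockout buds, against 21.0 and 18.1 TPM in control buds (log2 fold change -1.10 ± 0.16; limma with Benjamini-Hochberg, adjusted p = 0.0409). It did not pass without control replicate 1 or 2 (limma, adjusted p = 0.127 and 0.0895) or under median-ratio and quantile scaling. Atoh8, a helix-loop-helix gene, stood at 5.87 and 6.52 TPM in knockout buds and 9.23 and 12.1 TPM in control buds, and Id2, a dominant-negative helix-loop-helix gene, at 225 and 251 against 199 and 192 TPM, and neither passed (limma with Benjamini-Hochberg, adjusted p = 0.150 and 0.350). With somite stage as a block Atoh8 passed as lower (limma, adjusted p = 0.0474). The lists were thus mixed, with Bmp5 higher and Bambi lower beside the lower Msx levels.

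Genes of the apical ectodermal ridge, where Dlx genes and Msx2 are active, tended to lie below the controls. Of 16 genes 0 rose and 2 fell, where 0.492% of all tested genes were called lower. A negative log2 fold change was found for 15, with a median of -0.29, against 0.00838 over all tested genes. The list was chosen with earlier results of these data known, so these counts are a description. It shares Trp63 with the ectoderm markers, Bmp2 and Bmp7 with the BMP ligands, and En1 with the homeobox list below. The ridge growth factor gene Fgf8 fell to 53.7 and 45.6 TPM in knockout buds, against 116 and 98.2 TPM in control buds (limma with Benjamini-Hochberg, adjusted p = 0.0283; with control replicate 1 or 2 left out it was 0.0871 and 0.055). Sp6, a zinc finger gene of the ridge, fell to 9.67 and 7.29 TPM, against 26.4 and 21.6 TPM in control buds (limma with Benjamini-Hochberg, adjusted p = 0.0283; with control replicate 1 or 2 left out it was 0.0895 and 0.0573). Both calls also ended under median-ratio and quantile scaling. En1, a homeobox gene of ventral ectoderm, stood at 3.54 and 2.46 TPM, against 9.65 and 7.22 TPM in control buds, and did not pass (limma with Benjamini-Hochberg, adjusted p = 0.0589). With somite stage as a block 4 ridge genes fell, En1 (limma, adjusted p = 0.0175) and Cd44 joining Fgf8 and Sp6. The summed level of the list was 308 and 247 TPM in knockout buds and 413 and 372 TPM in control buds, beside the lower ectoderm markers given above.

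Other limb homeobox genes, mainly but not only of the paired and LIM classes, moved in both directions. Of the 12 measured among 15, 1 rose and 2 fell, with a median log2 fold change of 0.15. Pitx1, the hindlimb gene, rose (14.9 and 10.4 TPM in knockout buds, 0.110 and 0.165 TPM in control buds; limma with Benjamini-Hochberg, adjusted p = 0.00422). Lhx2 fell to 8.26 and 10.6 TPM, against 32.4 and 49.2 TPM in control buds (limma with Benjamini-Hochberg, adjusted p = 0.0211), and Lhx9 to 32.4 and 33.2 TPM, against 68.7 and 105 TPM in control buds (limma with Benjamini-Hochberg, adjusted p = 0.0416; with control replicate 2 left out it was 0.055, under quantile scaling 0.0583 and without a variance trend 0.0551). With somite stage as a block 2 genes of this list rose and 4 fell, Lmx1b joining Pitx1, and Alx4 and En1 joining Lhx2 and Lhx9. Of the 10 measured among 16 skeletal genes, 0 passed in limma, an unadjusted p under 0.05 was reached by 2 higher and 0 lower genes, and the median was 0.11. Runx2, the master regulator of bone formation, stood at 2.52 and 1.51 TPM in knockout buds and 0.572 and 0.963 TPM in control buds, and Pthlh, a paracrine regulator of cartilage, at 2.31 and 1.07 against 0.332 and 0.328 TPM (limma with Benjamini-Hochberg, adjusted p = 0.227 and 0.171). Pitx1, Runx2 and Pthlh were under 1 TPM in both control libraries and entered the fit only through the knockouts, where they are high. Spp1, the osteopontin gene, stood at 1.38 and 1.52 against 0.695 and 1.11 TPM (limma with Benjamini-Hochberg, adjusted p = 0.465), and Ibsp, the bone sialoprotein gene, was listed at 0 in every library.

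Other cell types of the bud were followed by their markers. In limma 0 of 8 endothelial, 0 of 11 erythroid, 0 of 7 macrophage and 0 of 3 Schwann cell and neural crest markers passed, and an unadjusted p under 0.05 was reached by 0, 3, 1 and 0 of them. In the fit with stage as a block 1 of these passed, the alpha-globin gene Hba-a1, which was higher. The median log2 fold changes of these lists were 0.12, 0.17, -0.37 and -0.23. The part of these cell types in the differences of the members was not tested.

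The genes around the 7 loci were compared with the members to see whether whole neighbourhoods differed. Within 500000 bases of a member's start lay 75 protein-coding genes, of which 55 were tested, and 1 of these rose and 0 fell (limma with Benjamini-Hochberg, adjusted p under 0.05; 1.30% of all tested genes were called in either direction). Their median log2 fold change was -0.01. The gene that rose was Col1a1, 184 kb from Dlx3, which encodes a chain of type I collagen and stood at 45.1 and 58.5 TPM in knockout buds and 9.61 and 10.7 TPM in control buds (log2 fold change 2.23 ± 0.16; limma with Benjamini-Hochberg, adjusted p = 0.00694). Its difference had the sign opposite to those of Dlx3 and Dlx4. The nearest tested genes did not pass on either side of Msx1, Evc2 (486 kb away) and Stx18 (214 kb away), at 0.22 ± 0.12 and -0.05 ± 0.12. The same held for Sptlc1, the nearest on the 1 side of Msx2 with tested genes (-0.07 ± 0.11), Metap1d and Itga6 around Dlx1 and Dlx2 (0.02 ± 0.13 and -0.08 ± 0.13), Itga3 and Kat7 around Dlx3 and Dlx4 (-0.41 ± 0.18 and 0.19 ± 0.13), and Sem1 and Sdhaf3 around Dlx5 and Dlx6 (-0.29 ± 0.17 and -0.17 ± 0.16). Sem1 lies 285 kb from Dlx6. Around Prrx1, Fmo1 (447 kb away) and Gorab were at 0.10 ± 0.16 and -0.22 ± 0.11, and around Prrx2, Asb6 and Ptges were at 0.18 ± 0.14 and -0.93 ± 0.19. Ptges, a prostaglandin synthase gene, came nearest to the threshold of these (limma with Benjamini-Hochberg, adjusted p = 0.0997). In the fit with stage as a block it passed as lower (limma, adjusted p = 0.0294), and 2 neighbours were called higher and 2 lower in all, the others being Col1a1, and Evc and Nsg1 near Msx1.

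**Figure D5:**
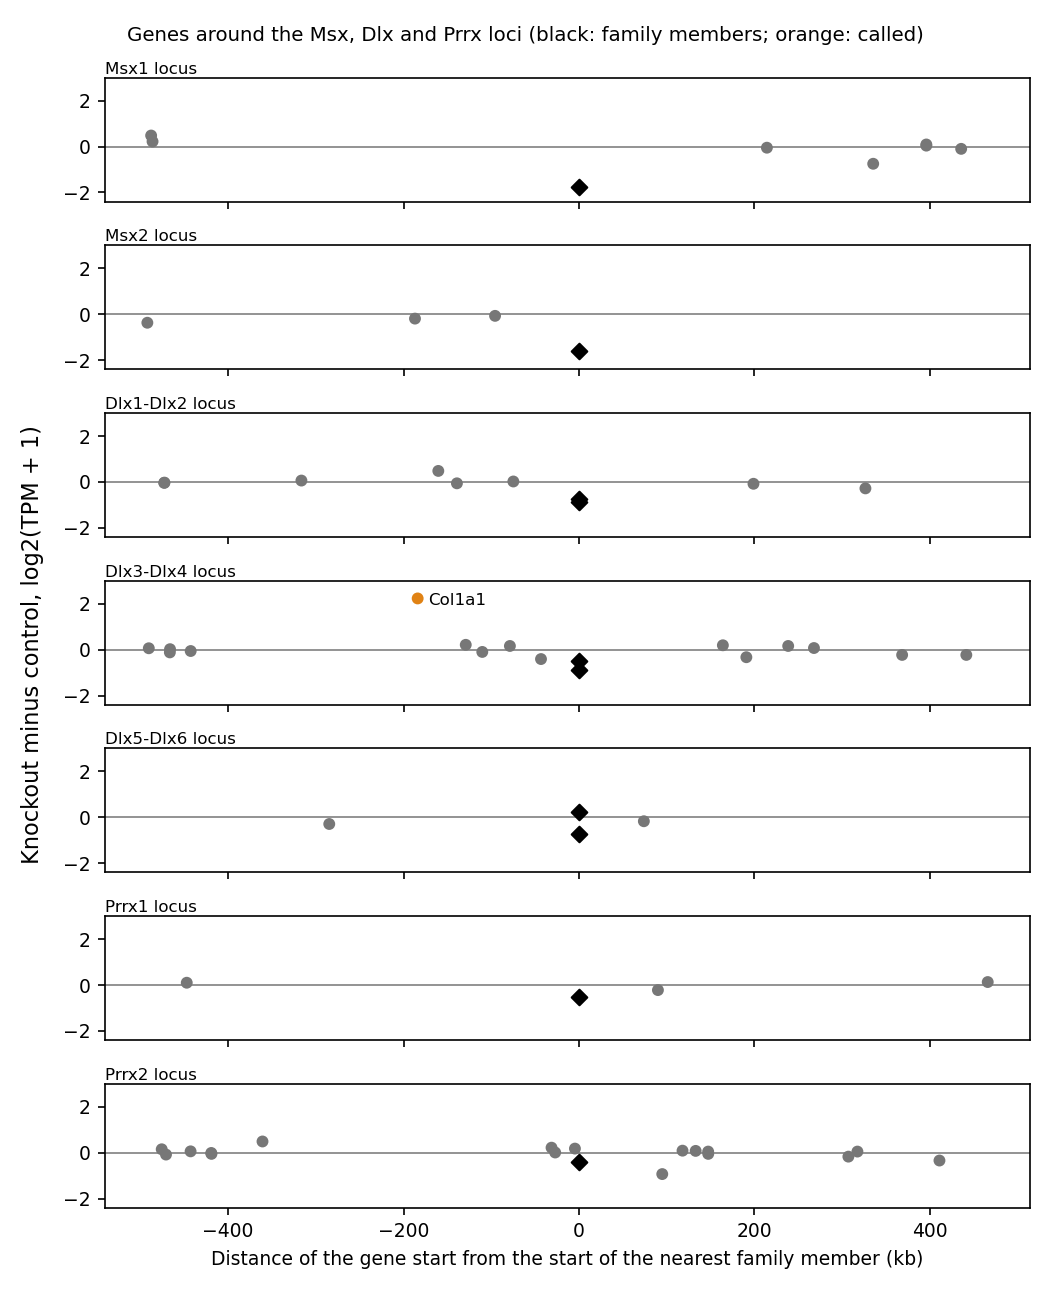
Knockout minus control on the log2(TPM + 1) scale for tested protein-coding genes, against the distance in kb from the start of the nearest family member (black diamonds at 0), in 7 panels for the 7 loci. Most neighbours lie near 0, and Col1a1 at 2.23 is the 1 neighbour past the threshold without stage in the model.

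Genes whose pattern over the 4 libraries was most like that of a member were ranked by the Euclidean distance between deviations of log2(TPM + 1) from each gene's own mean, as a description over 4 libraries. Among the 5 nearest to Msx1 were Fgf13 (distance 0.222), the processed pseudogene Gm1821 (0.236, with reads that may belong to its parent gene), the phosphatase gene Dusp14 (0.262) and Lhx2 (0.334). Nearest to Dlx5 were Glcci1 (0.101), Lypd3 (0.129), Edar (0.132), Igfbpl1 (0.142) and Acbd4 (0.155). Edar, the ectodysplasin receptor gene of ectodermal appendages, stood at 4.01 and 1.87 TPM in knockout buds and 5.20 and 4.88 TPM in control buds. Nearest to Prrx1 were Lxn (0.0326), Sh3bp4 (0.0343), Pcbd1 (0.0345), Oasl2 (0.0378) and Impdh1 (0.0450).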

How the data were processed

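RNA from 4 mouse forelimb bud pairs (E11.5), 2 per genotype, was sequenced on a DNBseq instrument, per the labels. The authors deposited TPM values per Ensembl gene. Salmon 1.9.0 and the build mm10 appear in the submitters' processing notes. The transcript set is not given in the sources used here. Symbols and positions came from GENCODE M21 (mm10, counted from 1), which matched 35422 of 35727 identifiers (99.1%). Values of 38 repeated symbols were summed. One column name carries a letter that its sample title lacks.

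The 12809 genes with at least 1 TPM in at least 2 libraries were log2-transformed after adding 1 and fitted in R 4.3.3 with limma 3.58.1 (eBayes with a mean-variance trend), with p-values adjusted by Benjamini-Hochberg at 0.05. With 2 libraries per genotype the smallest two-sided p of an exact permutation test is 0.333. Fold changes are knockout minus control and understate those of low genes. Stage was fitted with genotype as a term, which leaves 1 residual degree of freedom. The fits were tested on simulated data. Deviations of same-stage libraries from their genotype means correlated over 12809 genes (Pearson 0.25, Spearman 0.364). Stage, given by the labels, pairs the libraries for the block.

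The members and gene lists were chosen with earlier results of these data known. Named genes are the members, Smarcc1, called genes and otherwise the 3 smallest p-values of each list, the nearest tested and all called neighbours within 500000 bases, and the 5 genes most like Msx1, Dlx5 and Prrx1. Of the cell type markers, those called are named. Cd44, Alx4, Lmx1b, Hoxd11, Cldn6, Grhl3, Perp, Hba-a1, Evc and Nsg1, called with the block, were named after their values were seen. A few of the genes picked in this way are not reported here. Alternatives tried were pseudocounts of 0.1 and 5, no filter or one at 5 TPM, median-ratio and quantile scaling, the block, other variance estimates, and each library left out.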

Additional observations from a re-analysis of the deposited data

Results flagged for a closer look

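Among 44 named genes, 4 neighbours of the members had genotype differences of opposite sign in the embryos with 40 and with 39 somites. The difference between stages was not tested, as each stage has 1 embryo per genotype. Knockout minus control on the log2(TPM + 1) scale was 0.07 at 40 somites and -0.17 at 39 for Stx18 (a change of 0.23), 0.07 and -0.02 for Metap1d (0.10), -0.21 and 0.06 for Itga6 (-0.28) and 0.26 and -0.05 for Fmo1 (0.31). None of the 10 members was of this kind, which for the 9 without overlap between genotypes was fixed by that lack of overlap.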

How the results depend on the processing

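Of the members, 2 were past the threshold of limma in the knockout comparison. That count was 0 with no filter on low values (where 0 of all genes passed and 2338 had an unadjusted p under 0.05), 1 (Msx1) under median-ratio and under quantile scaling, 5 with somite stage as a paired replicate block (Dlx2, Dlx3, Msx1, Msx2 and Prrx1), and 1 to 6 when a library was left out, with 6 without knockout replicate 1 and 1 (Msx1) without either control. Over all genes, 167 passed, against 0 with no filter, 533 with the replicate block, 275 with a robust variance and 50 to 646 with a library left out. The calls were 62.3% higher, and 49.9% with the block. Between 40 and 39 somites 21 genes passed, against 0 with no filter (2788 at an unadjusted p under 0.05) and 12 without a variance trend. Leaving out a library unbalances stage and sex between genotypes. The log2 fold changes of 9 members stayed negative in every alternative run, from -1.95 to -1.54 for Msx1 and -1.92 to -1.33 for Msx2. Their libraries did not overlap between genotypes, so only a rescaling could have changed the sign, and the other runs bear on size alone. Dlx6 ran from -0.05 to 0.55. The block's other changed calls stand beside their results. The causes were not tested. Named genes outside the family changed sign in 0 called cases, lost calls in 30 fits and gained them in 12. Read depth is unknown, so no limit of detection can be given for Dlx4.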
